A study of Homo sapiens with 10 samples.

Results

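The 10 genes examined here belong to the uptake, transfer within the cell and export of copper and platinum. They encode the copper importer SLC31A1 and its paralogue SLC31A2, cytosolic copper chaperones (ATOX1, CCS) and the copper-pumping ATPases (ATP7A, ATP7B). The others encode subunits of the volume-regulated anion channel (LRRC8A, LRRC8D), the cation extruder SLC47A1 and the membrane protein TMEM205. The 10 genes were taken as a list of names chosen for function, with earlier results of these data known. All 10 were found among the 58037 gene identifiers of the input tables (a symbol was found for 56948). The RNA came from A549, a human lung adenocarcinoma line, and from A549/DDP, a derivative of A549 cells resistant to cisplatin (DDP). Both were grown in RPMI medium with serum at a passage of at most 10. The paper's methods give A549 as purchased from a company and A549/DDP as a gift from a laboratory elsewhere. The comparison was between the lines, and source of the cells and resistance cannot be told apart in it. The labels name no transgene, no drug exposure and no time point for these libraries, and the files hold no measure of resistance. Each line had 2 input RNA-seq libraries of RNA that was not pulled down and 2 m6A-seq libraries, in which fragments bound by an antibody against N6-methyladenosine (m6A) were sequenced. For the A549/DDP inputs the title and the cell type give the resistant line, whereas the cell line label gives A549. The labels do not say whether the libraries of a line came from separate cultures, so p-values measure the spread between these libraries, which may be technical.

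Copper enters cells as the reduced ion through the trimeric importer SLC31A1 (CTR1), and is then passed by protein contact: ATOX1 hands it to ATP7A and ATP7B, which load secreted enzymes in the Golgi and export the surplus, while CCS loads the antioxidant enzyme SOD1. Cisplatin binds several of the same metal-binding sites. It also crosses the membrane through channels built of LRRC8 subunits, in which LRRC8A is obligatory and LRRC8D favours uptake of cisplatin, and organic cation carriers move platinum drugs in and out of epithelial cells.

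RNA of 2 of the 10 genes differed between the lines past the threshold of an adjusted p-value of 0.05. The importer SLC31A1 rose in A549/DDP and the channel subunit LRRC8D fell. Levels between libraries are given as CPM, counts scaled to a common library size with TMM factors. Fold changes and adjusted p-values come from the quasi-likelihood test of edgeR, adjusted by Benjamini-Hochberg over the 16406 genes tested. In that test 14.9% of all genes tested were called, 6.85% higher and 8.0% lower in A549/DDP. The 2 libraries of one line lay wholly above or below those of the other for 7 of the 10 genes (SLC31A1, CCS, ATP7B, LRRC8A, LRRC8D, SLC47A1 and TMEM205), beside 62.4% of all genes tested. The median log2 fold change of the 10 genes was 0.86, beside -0.0016 over all genes tested. Since the list was chosen with earlier results of these data known, these comparisons with all genes describe it and test nothing. Fewer cells of one kind and less RNA per cell cannot be told apart in such libraries.

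**Figure D1:**
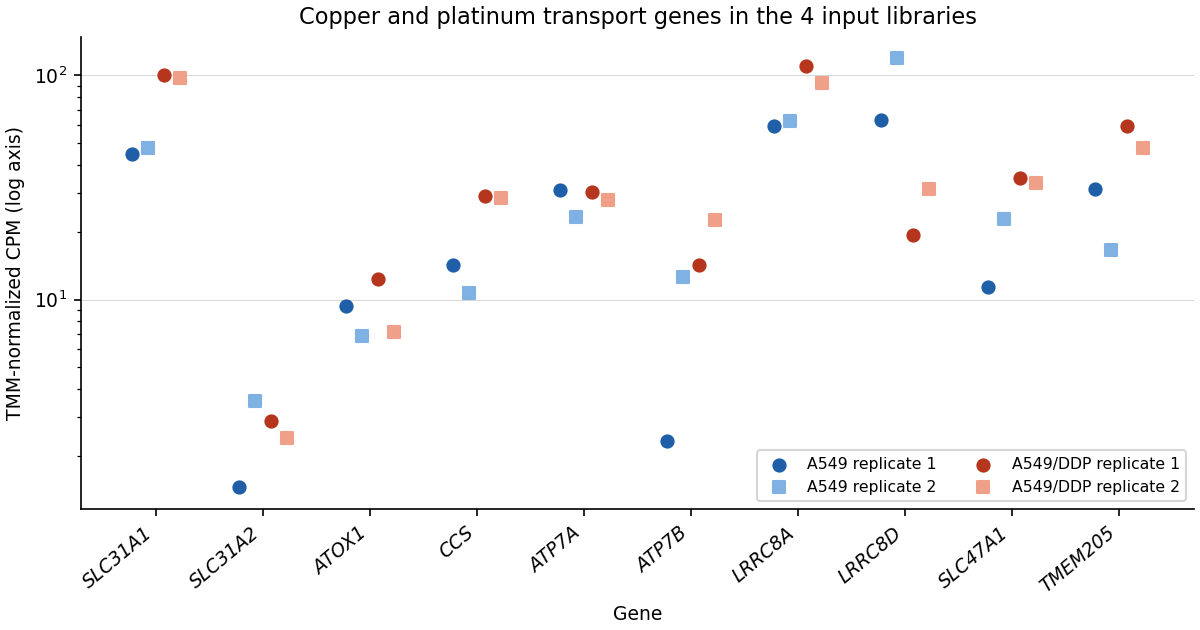
CPM (log axis) of each of the 10 genes in the 4 input libraries, 1 point per library, blue for A549 and red for A549/DDP. The A549/DDP points lie above both A549 points for SLC31A1, CCS, ATP7B, LRRC8A, SLC47A1 and TMEM205 and below both for LRRC8D, and the points of the lines overlap for SLC31A2, ATOX1 and ATP7A.

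The start regions of SLC31A1 and LRRC8D are shown because these were the genes called, and that of CCS because it was the only one of those matched to hold the antioxidant response core. The sequences are from RefSeq on GRCh38.p14, which matched 7 of the 10 genes, and are written 5' to 3' on the plus strand, the strand of all 3 genes, ending at the base before the annotated start. Capitals mark the GC box GGGCGG, the metal response core TGCGCNC or TGCACNC and the antioxidant response core TGACNNNGC, each on either strand. For CCS only the 121 bases outside the neighbouring gene CCDC87 are shown.
SLC31A1, chr9:113221294-113221543: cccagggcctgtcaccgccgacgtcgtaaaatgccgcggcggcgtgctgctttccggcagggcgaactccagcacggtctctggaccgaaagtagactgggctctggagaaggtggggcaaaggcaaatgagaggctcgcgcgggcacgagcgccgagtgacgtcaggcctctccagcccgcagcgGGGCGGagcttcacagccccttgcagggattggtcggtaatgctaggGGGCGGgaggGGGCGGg
LRRC8D, chr1:89820782-89821031: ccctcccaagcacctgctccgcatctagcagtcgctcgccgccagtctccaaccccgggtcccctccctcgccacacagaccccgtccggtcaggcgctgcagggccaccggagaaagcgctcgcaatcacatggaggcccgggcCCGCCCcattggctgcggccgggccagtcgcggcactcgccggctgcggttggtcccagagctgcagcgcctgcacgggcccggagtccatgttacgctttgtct
CCS, chr11:66593064-66593184: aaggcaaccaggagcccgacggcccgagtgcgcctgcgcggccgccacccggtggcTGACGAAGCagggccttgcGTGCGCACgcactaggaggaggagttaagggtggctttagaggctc

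In the 250 bases before its start SLC31A1 held 3 GC boxes, 64, 17 and 7 bases before the start as counted to the first base of each, and neither response core. LRRC8D held 1 GC box in the window shown, and the window of another annotated start, inside the gene's span, held 3 GC boxes and 1 TGCACNC. CCS held no GC box, 1 TGACNNNGC and 2 matches of TGCGCNC, which are the overlapping strands of 1 palindromic stretch. ATOX1 held the same overlapping pair and 1 GC box. Of the 3 windows of ATP7B, 1 held 3 GC boxes and 2 matches of TGCGCNC, 1 held 3 GC boxes and 1 held none, and the windows of LRRC8A held 2 GC boxes and 0. Of 35116 promoter windows of 250 bases, 42.6% held GGGCGG, 16.8% held TGCGCNC, 9.87% held TGCACNC and 10.9% held TGACNNNGC. The window of ATP7A held none of these. A match describes letters and not binding.

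SLC31A1 (chr9:113221544-113264492 on hg38), the high-affinity copper importer, had 44.9 and 47.3 CPM in the A549 inputs and 101 and 97.3 CPM in the A549/DDP inputs. Both A549/DDP libraries were above both A549 libraries, and the libraries of each line lay close together. The level rose 2.15-fold, a log2 fold change of 1.11 (SE 0.18, 95% confidence interval 0.66 to 1.56, edgeR adjusted p = 0.0156, n = 2 per line). It was higher in 2 of 2 A549/DDP libraries. Without A549/DDP replicate 1 the log2 fold change was 1.06 and the edgeR adjusted p = 0.0644, so the call was lost with a fold of about the same size in a fit with 1 A549/DDP library. With limma on log2 TPM or FPKM the adjusted p-values were 0.0771 to 0.106.

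SLC31A2 (chr9:113151007-113164140), a paralogue found mainly in intracellular vesicles, had the lowest mean TPM, a unit scaled for transcript length as well as depth, of the 10 genes in both lines. Its levels were 1.46 and 3.53 CPM in A549 and 2.87 and 2.41 CPM in A549/DDP, and the lines overlapped. The log2 fold change was 0.08 (SE 1.10, 95% confidence interval -2.59 to 2.76, edgeR adjusted p = 0.973), an interval too wide to show a difference of the size seen in SLC31A1. Its counts were fractional in all 4 libraries, and 3135 bases of its span are shared with the gene FKBP15. In TPM, SLC31A1 was 8.86 and 4.70 times SLC31A2 in A549 and 12.5 and 14.1 times in A549/DDP. The ranges of this TPM ratio did not overlap between the lines. With 2 libraries against 2 an exact two-sided permutation test cannot give a p-value below 0.333, so no ratio given here was tested.

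Of the chaperones, ATOX1 (chr5:151742822-151758631), which hands copper to the ATPases, had 9.42 and 6.86 CPM in A549 and 12.3 and 7.17 CPM in A549/DDP. The lines overlapped, with a log2 fold change of 0.26 (SE 0.55, edgeR adjusted p = 0.816). CCS (chr11:66593185-66606019), which loads SOD1, had 14.2 and 10.7 CPM in A549 and 29.1 and 28.4 CPM in A549/DDP. Both A549/DDP values lay above both A549 values, and the 2.31-fold difference missed the threshold (log2 fold change 1.21, SE 0.33, 95% confidence interval 0.40 to 2.01, edgeR adjusted p = 0.0606). The TPM ratio of CCS to ATOX1 was 0.636 and 0.667 in A549 and 0.867 and 1.44 in A549/DDP, so that CCS was the lower of the pair in both A549 libraries. SOD1, the enzyme CCS serves, had 81.2 and 87.6 CPM in A549 and 117 and 118 CPM in A549/DDP (log2 fold change 0.47, SE 0.17, edgeR adjusted p = 0.120). Its TPM was 5.94 and 8.60 times that of CCS in A549 and 4.45 and 4.71 times in A549/DDP.

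The copper ATPases did not pass the test. ATP7A (chrX:77910693-78050395), the pump of most tissues, had 30.7 and 23.4 CPM in A549 and 30.2 and 27.8 CPM in A549/DDP. The lines overlapped, and the log2 fold change was 0.10 (SE 0.29, 95% confidence interval -0.60 to 0.80, edgeR adjusted p = 0.869). That interval holds changes of up to 0.80 in log2 and does not reach the 1.11 of SLC31A1. ATP7B (chr13:51932669-52012132), the pump best known from liver, varied most within a line, with 2.34 and 12.6 CPM in A549 and 14.3 and 22.8 CPM in A549/DDP. A549 replicate 2 was nearer to A549/DDP replicate 1 than to its own replicate, and the log2 fold change of 1.30 had an interval of -0.63 to 3.24 (SE 0.80, edgeR adjusted p = 0.326). Without A549 replicate 2 the edgeR log2 fold change of ATP7B was 2.97 (adjusted p = 0.00364), and without A549 replicate 1 it was 0.54 (adjusted p = 0.708). The TPM ratio of ATP7B to ATP7A was 0.136 and 1.03 in A549 and 0.95 and 1.78 in A549/DDP, with overlapping ranges. The TPM ratio of SLC31A1 to ATP7A, importer over exporter, was 2.64 and 3.62 in A549 and 6.05 and 6.18 in A549/DDP, without overlap.

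**Figure D2:**
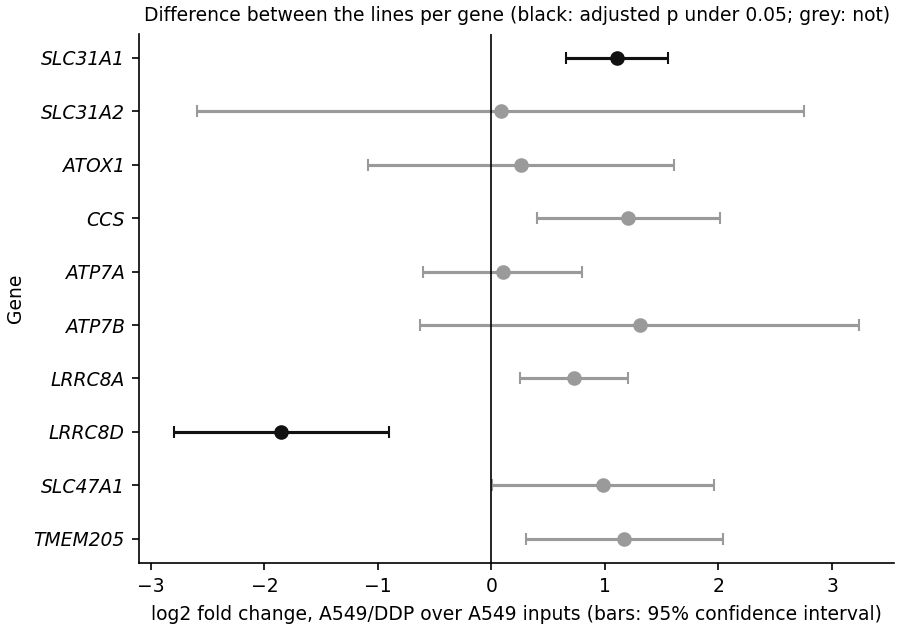
log2 fold change of A549/DDP over A549 inputs for each of the 10 genes, with 95% confidence intervals from the fit across all genes. The intervals of SLC31A1 (0.66 to 1.56) and LRRC8D (-2.80 to -0.90) belong to the genes called, and those of CCS, LRRC8A, SLC47A1 and TMEM205 also lie above 0 without passing the adjustment.

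LRRC8D (chr1:89821032-89936611) had 63.5 and 119 CPM in A549 and 19.5 and 31.2 CPM in A549/DDP. Both A549/DDP libraries were below both A549 libraries, although the A549 libraries differed widely from each other. The level fell by 1.85 on the log2 scale (SE 0.39, 95% confidence interval -2.80 to -0.90, edgeR adjusted p = 0.0293) and was 3.61-fold higher in A549 than in A549/DDP. It was lower in 2 of 2 A549/DDP libraries. Without A549/DDP replicate 1 the edgeR log2 fold change was -1.57 (adjusted p = 0.0517), and with limma on TPM or FPKM the adjusted p-values were 0.0897 to 0.109. LRRC8A (chr9:128882133-128918039), the obligatory subunit, had 59.6 and 62.9 CPM in A549 and 111 and 92.1 CPM in A549/DDP. The lines did not overlap, and the difference missed the threshold (log2 fold change 0.73, SE 0.19, 95% confidence interval 0.25 to 1.20, edgeR adjusted p = 0.0570).

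The make-up of the LRRC8 family differed between the libraries of the lines, on ranges that did not overlap for LRRC8A, LRRC8C and LRRC8D. Such shares have no counterpart over all genes, but in CPM the lines did not overlap for 62.4% of all genes tested. The shares of a library add up to a fixed total, so a lower share of LRRC8D by itself raises the others. LRRC8D was 46.1% and 60.2% of the summed TPM of the 5 subunits in A549 and 18.6% and 32.9% in A549/DDP. LRRC8A was 30.3% and 22.8% in A549 and 65.1% and 56.9% in A549/DDP. LRRC8C was 13.5% and 4.14% in A549 and 4.09% and 1.09% in A549/DDP, so that its ranges nearly met. The TPM ratio of LRRC8D to LRRC8A was 1.52 and 2.64 in A549 and 0.285 and 0.578 in A549/DDP. On counts, which take no account of length, the ratio was 1.06 and 1.90 in A549 and 0.176 and 0.338 in A549/DDP. The TPM of LRRC8D was above that of LRRC8A in both A549 libraries and below it in both A549/DDP libraries, and neither ratio overlapped between the lines. The summed TPM of the 5 subunits was 70.0 and 111 in A549 and 68.8 and 62.3 in A549/DDP. Of the remaining subunits, which pair with LRRC8A to form channels of other selectivity, LRRC8C had 41.7 and 16.4 CPM in A549 and 13.0 and 3.13 CPM in A549/DDP (log2 fold change -1.85, SE 0.77, edgeR adjusted p = 0.158). LRRC8B had 12.1 and 9.87 CPM in A549 and 7.12 and 7.11 CPM in A549/DDP (edgeR adjusted p = 0.457). LRRC8E had 7.08 and 10.4 CPM in A549 and 10.9 and 9.35 CPM in A549/DDP (edgeR adjusted p = 0.840).

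**Figure D3:**
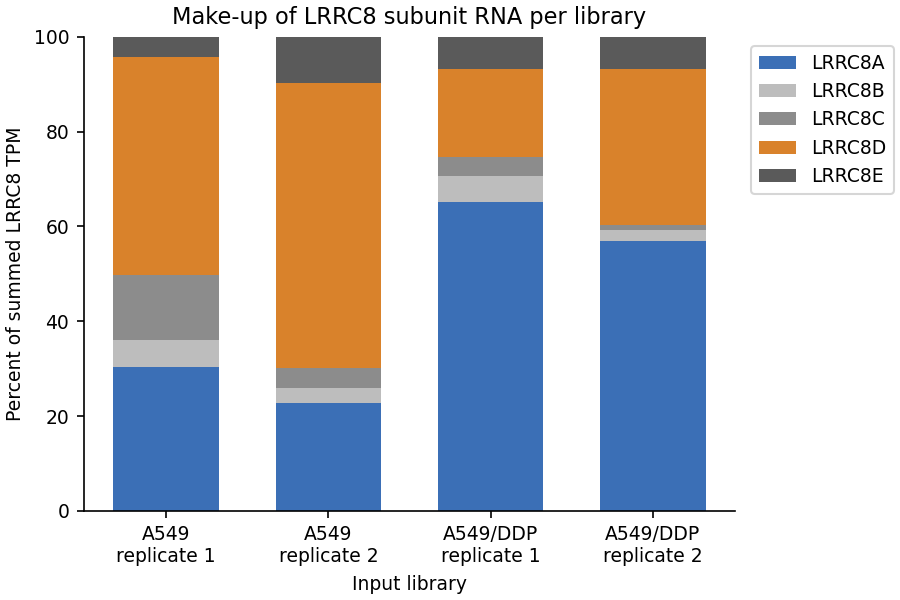
Share of each LRRC8 subunit in the summed TPM of LRRC8A to LRRC8E (percent, stacked bars from 0 to 100), 1 bar per input library. LRRC8D (orange) takes 46.1% and 60.2% in A549 and 18.6% and 32.9% in A549/DDP, and LRRC8A (blue) takes the largest share in both A549/DDP bars.

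SLC47A1 (MATE1, chr17:19533854-19579034), a proton-coupled extruder of organic cations, had 11.3 and 23.0 CPM in A549 and 34.9 and 33.1 CPM in A549/DDP. The lines did not overlap, but the A549 libraries differed from each other, and the log2 fold change of 0.98 missed the threshold (SE 0.40, edgeR adjusted p = 0.152). It was 1.57 (adjusted p = 0.0139) without A549 replicate 2 and 0.55 (adjusted p = 0.522) without A549 replicate 1 in edgeR. TMEM205 (chr19:11342778-11346492), a small membrane protein studied for its part in cisplatin resistance, had 31.0 and 16.6 CPM in A549 and 59.7 and 47.7 CPM in A549/DDP. Its log2 fold change was 1.17 (SE 0.36, 95% confidence interval 0.30 to 2.04, edgeR adjusted p = 0.0798), with both A549/DDP libraries above both A549 libraries. It was 1.68 (edgeR adjusted p = 0.000459) without A549 replicate 1 and 0.77 (adjusted p = 0.12) without A549 replicate 2.

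In order of TPM, which is per length, TMEM205 was highest in both lines at 57.5 ± 22.6 (SD, n = 2) in A549 and 135 ± 22.1 in A549/DDP. In A549 it was followed by LRRC8D (49.4 ± 24.2), ATOX1 (33.0 ± 4.34), LRRC8A (23.2 ± 2.85), CCS (21.4 ± 2.11), SLC31A1 (15.4 ± 2.03), SLC47A1 (11.4 ± 4.45), ATP7A (4.98 ± 0.453), ATP7B (2.76 ± 2.88) and SLC31A2 (2.59 ± 1.42). In this order ATOX1 and LRRC8A, CCS and SLC31A1, and SLC47A1 and ATP7A were the neighbours whose libraries did not overlap. In A549/DDP the order after TMEM205 was CCS (46.4 ± 0.997), ATOX1 (43.0 ± 16.0), LRRC8A (40.1 ± 6.60), SLC31A1 (33.2 ± 0.658), SLC47A1 (26.7 ± 2.96), LRRC8D (16.6 ± 5.46), ATP7B (7.36 ± 2.94), ATP7A (5.43 ± 0.191) and SLC31A2 (2.51 ± 0.269). CCS, ATOX1 and LRRC8A overlapped with their neighbours there, as did ATP7B and ATP7A, and the other neighbours did not. LRRC8D was at rank 2 of the 10 in A549 and at rank 7 in A549/DDP.

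The TPM values rest on the mean transcript length that RSEM assigned in each library, which also moved. For LRRC8D, with 7 annotated transcripts, the mean length was 2951 and 3082 bases in A549 and 2470 and 2489 bases in A549/DDP, and the A549/DDP mean was 82.2% of the A549 mean. For ATP7B, with 16 transcripts, it was 4800 and 4475 bases in A549 and 4279 and 3868 bases in A549/DDP. For SLC31A1 it was 4744 bases in all 4 libraries. The mean length of 5 of the 10 genes (ATOX1, CCS, ATP7B, LRRC8A and LRRC8D) did not overlap between the lines, beside 30.5% of all genes tested.

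Some spans overlap other genes, those of the genes called among them. SLC31A1 shares 21826 bases with the long noncoding RNA gene LOC107987119, and LRRC8D shares 763 bases with LRRC8D-DT. SLC47A1 shares 11184 bases with LOC105371578, and LRRC8A shares 6831 bases with LOC101929291 and 391 with KYAT1. ATP7A shares 1690 bases with PGAM4, ATP7B shares 1698 with TMEM272, and ATOX1 shares 5281 with the antisense gene ATOX1-AS1. The libraries were prepared with a strand-specific dUTP method. Whether the counting used strand is not given in the sources used here, so whether the counts of such partners are separate is unknown. Counts were fractional in 2 libraries for LRRC8D and in 3 for TMEM205, and whole in all 4 libraries for the other genes except SLC31A2.

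Around these genes, 50 genes of copper and platinum handling in 6 lists were read from the same fit: 49 were matched, 42 passed the filter on low counts, 5 rose and 3 fell, and their median log2 fold change was 0.20. Over all genes tested 14.9% were called, 6.85% higher and 8.0% lower, so that most of the counts per list below, 1 or 2 genes each, lie near what that share gives. In the list of metal reductases and other uptake, 1 of 5 genes tested rose and none fell (median log2 fold change 0.56). That gene was STEAP3, an endosomal reductase, at 27.8 and 54.8 CPM in A549 and 115 and 104 CPM in A549/DDP (log2 fold change 1.41, edgeR adjusted p = 0.0430). In mitochondrial copper delivery 1 of 7 fell and none rose (median -0.47). COX19, needed to assemble cytochrome c oxidase, had 43.4 and 29.9 CPM in A549 and 5.63 and 13.0 CPM in A549/DDP (log2 fold change -1.97, edgeR adjusted p = 0.0467), and COX17, the chaperone that feeds copper to that enzyme, had 35.2 and 25.3 CPM in A549 and 22.6 and 20.2 CPM in A549/DDP (edgeR adjusted p = 0.333).

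In the list of partners of the copper pumps 1 of 9 rose, none fell and 8 were not called (median 0.03). The gene that rose was SLC33A1, listed there although it is an acetyl-CoA carrier of the endoplasmic reticulum and not itself a pump partner. It had 12.8 and 13.3 CPM in A549 and 42.8 and 41.4 CPM in A549/DDP (log2 fold change 1.69, edgeR adjusted p = 0.0139). COMMD1, a trafficking partner of ATP7B, had 15.0 and 14.4 CPM in A549 and 8.54 and 17.7 CPM in A549/DDP (edgeR adjusted p = 0.867). Of the copper-dependent enzymes 1 of 8 rose and 1 fell (median 0.45). Ceruloplasmin (CP), the secreted copper ferroxidase, had 5.68 and 5.92 CPM in A549 and 151 and 171 CPM in A549/DDP, a 27.7-fold rise (log2 fold change 4.79, SE 0.22, edgeR adjusted p = 0.0016). LOXL2, a lysyl oxidase that crosslinks collagen, had 407 and 406 CPM in A549 and 166 and 185 CPM in A549/DDP (log2 fold change -1.21, edgeR adjusted p = 0.0079). In copper sensing and regulation 1 of 6 fell and none rose (median -0.24), namely XIAP, an apoptosis inhibitor that also ubiquitinates CCS, from 105 and 86.9 CPM to 51.4 and 57.6 CPM (log2 fold change -0.82, edgeR adjusted p = 0.0466). Of other platinum carriers 2 of 7 rose and none fell (median 0.91). SLC22A3, an organic cation carrier, had 45.5 and 23.8 CPM in A549 and 132 and 111 CPM in A549/DDP (log2 fold change 1.81, edgeR adjusted p = 0.0209), and ABCC2, an exporter of glutathione conjugates, had 333 and 340 CPM in A549 and 693 and 715 CPM in A549/DDP (log2 fold change 1.06, edgeR adjusted p = 0.0090). SLC22A2, the kidney cation carrier, had 0 counts in all 4 libraries. On leaving out A549/DDP replicate 1, COX19, STEAP3 and XIAP were no longer called by edgeR (adjusted p = 0.06, 0.0732 and 0.192), with log2 fold changes of -1.51, 1.31 and -0.76, and XIAP was not called without A549 replicate 1 or A549/DDP replicate 2 either (adjusted p = 0.0712 and 0.129). With both A549 pairs in edgeR, SLC33A1, STEAP3, LOXL2, XIAP, SLC22A3 and ABCC2 were not called (adjusted p 0.0589 to 0.402). With limma on log2 TPM or FPKM, COX19 and STEAP3 were not called (adjusted p 0.0684 to 0.106). SLC33A1 was not called with limma on log2 TPM, nor in edgeR with the second A549 pair (adjusted p = 0.365). CP alone of these genes stayed called in every alternative of filter, scaling, tool, A549 pair and replicate that was run.

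**Figure D4:**
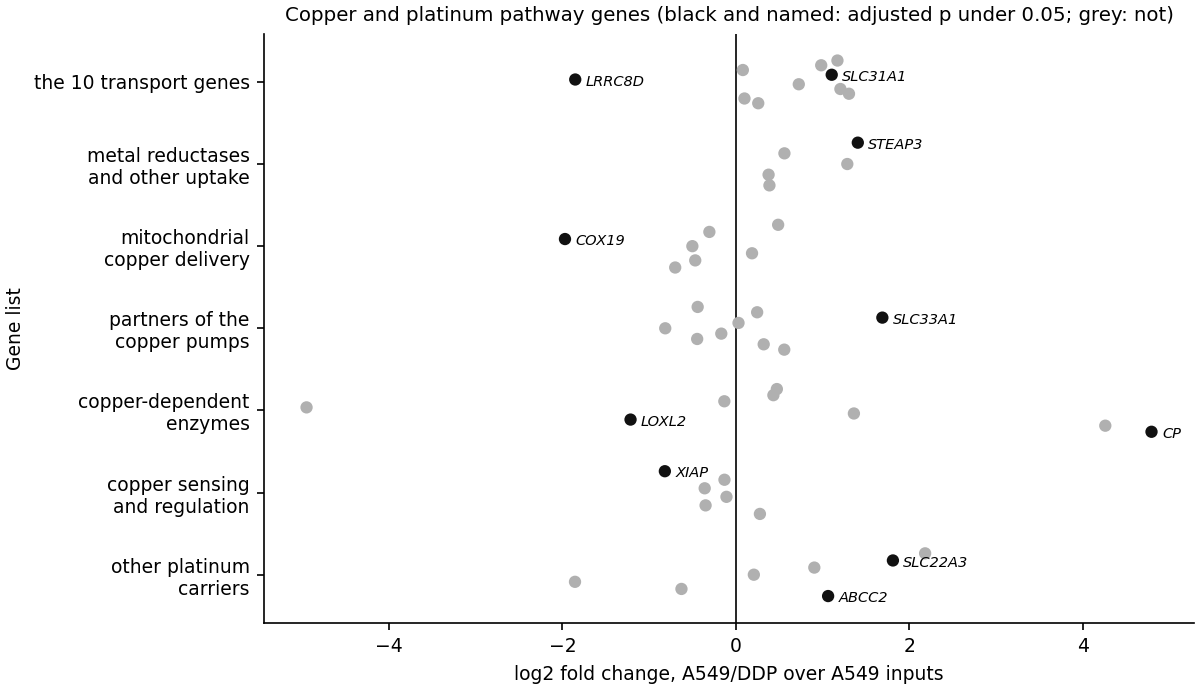
log2 fold change of A549/DDP over A549 inputs for every tested gene of the 10 transport genes and of the 6 pathway lists, 1 point per gene, black and named where the adjusted p-value was under 0.05. Among the genes called, CP (4.79) lies farthest to the right, and COX19 (-1.97) and LRRC8D (-1.85) farthest to the left. Some grey points of genes not called lie farther left, the farthest at -4.95 among the copper-dependent enzymes.

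The m6A peak lists give the stretches of transcripts that were called as peaks in each m6A-seq library, with the authors' p-value for each peak. A peak was called in 5 and 3 of the 10 genes in A549 replicates 1 and 2 and in 5 and 4 in A549/DDP replicates 1 and 2. Of all genes tested in the inputs 43.7%, 30.6%, 40.7% and 22.2% had a peak in the same libraries. These lists held 26320, 14576, 27244 and 10661 peaks, and no read depth. No list held a peak for SLC31A2, ATP7A, ATP7B or SLC47A1. A missing peak says that none was called, at an unknown depth, and not that m6A was absent.

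SLC31A1 had no called peak in either A549 library, 3 peaks over 1097 bases in A549/DDP replicate 1 and 5 peaks over 700 bases in A549/DDP replicate 2. A peak in both A549/DDP lists and in neither A549 list was found for 1.97% of all genes tested, and the opposite pattern for 4.62%. The peaks of SLC31A1 fell in 6 merged regions, of which 1, at chr9:113263248-113264044 near the gene's end, was shared by both A549/DDP libraries. The other 5 were each called in 1 library. The p-values of the SLC31A1 peaks were 0.00051 to 0.0049 in A549/DDP replicate 1 and 2.2e-05 to 0.0013 in replicate 2, so that none remained at or below 1e-05. The RNA of SLC31A1 in the inputs was 2.15-fold higher in A549/DDP, and the part of RNA level in the calls was not tested.

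LRRC8D, whose RNA fell, had a peak in all 4 libraries, as did 13.9% of all genes tested. Its peaks covered 2330 and 2283 bases in A549 and 1887 and 1540 bases in A549/DDP, in 2 merged regions that were called in all 4 libraries. Merging ran over the peaks of all genes. The first region thus also took in a peak of A549 replicate 1 at chr1:89843715-89846611, which shares no base with any other LRRC8D peak. The second region, chr1:89934285-89935918, lay within the last few kilobases of the gene in each library. The lowest p-value of its peaks was 4.7e-05, 3.9e-05, 9.1e-05 and 3e-07 in A549 replicates 1 and 2 and A549/DDP replicates 1 and 2. LRRC8A had 10, 6 and 9 peaks over 2399, 1998 and 2198 bases in A549 replicates 1 and 2 and A549/DDP replicate 1, and none in A549/DDP replicate 2, the library with the shortest list.

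TMEM205 also had a peak in all 4 libraries, in 1 merged region (chr19:11342825-11345817) covering 683 and 489 bases in A549 and 827 and 294 bases in A549/DDP. CCS had 4 peaks in A549 replicate 1 and 3 in A549/DDP replicate 2, with none in the other libraries, and ATOX1 in replicate 1 of each line (300 and 400 bases). For these 2 genes the replicates of each line did not match. A peak in at least 1 library was called for 6 of the 10 genes, beside 57.0% of all genes tested. Over these 6 genes 23 merged regions were found. Of these 3 were called in all 4 libraries, 1 was called in the 2 A549/DDP libraries alone, and 0 in the 2 A549 libraries alone. No share over all merged regions is given here, so these counts of regions describe the 6 genes and cannot be set against the whole lists.

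**Figure D5:**
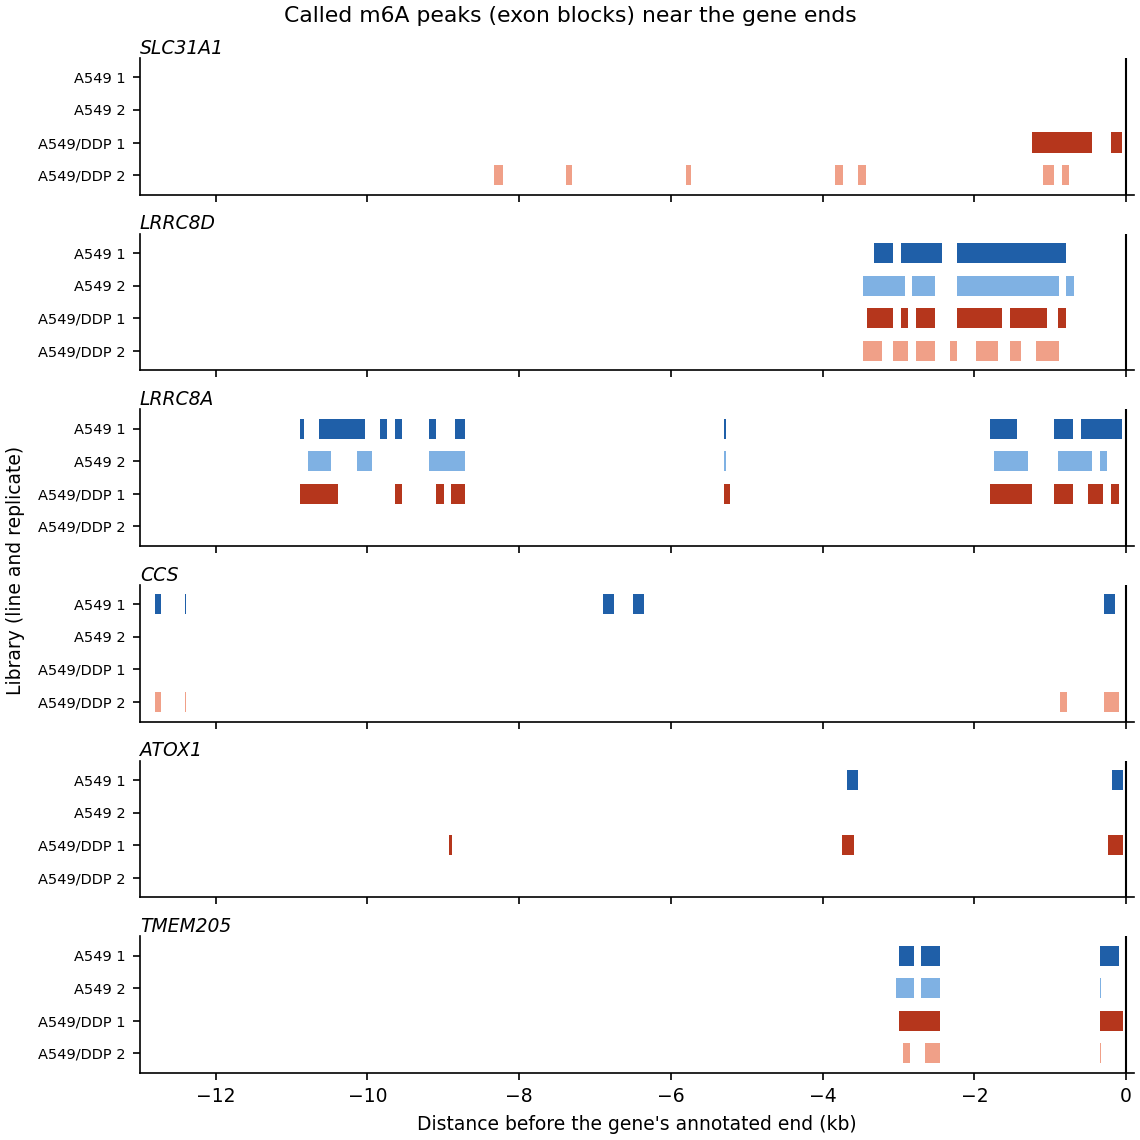
Exon blocks of the called m6A peaks of 6 genes by library, placed by distance before the annotated gene end (kb, last 13 kb), with 1 row per library, blue for A549 and red for A549/DDP. The A549 rows of SLC31A1 are empty, LRRC8D and TMEM205 have blocks in all 4 rows, and 2, 2 and 6 blocks of SLC31A1, LRRC8D and LRRC8A lie farther from the end than is drawn.

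Of the 42 pathway genes tested, 15 and 15 had a peak in A549 replicates 1 and 2, and 22 and 9 in A549/DDP replicates 1 and 2, beside 43.7%, 30.6%, 40.7% and 22.2% of all genes tested. The pattern of SLC31A1, a peak in both A549/DDP lists and in neither A549 list, was also found for COX17 (3 and 2 peaks), SOD1 (2 and 2 peaks) and LOXL2 (6 and 1 peaks). These are 7.14% of the 42 genes, beside the 1.97% of all genes tested. That share rests on 3 genes from lists chosen with earlier results of these data known, so it describes them and tests nothing. Whether their pattern remains in peak lists cut by p-value or length was not tested. The RNA of these 3 genes did not move one way: LOXL2 fell, and COX17 and SOD1 did not pass the test, with log2 fold changes of -0.50 and 0.47. LRRC8C alone of the pathway genes had peaks in both A549 lists (5 and 2) and in neither A549/DDP list, 1 of these 42 genes beside 4.62% of all genes tested.

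The main inputs held 29225501 to 35286514 counts each, and the 10 genes took 8833 to 13603 of them. The second pair of A549 inputs held 855034 and 982036 counts, of which 75.2% and 73.9% were mitochondrial, and 12 and 27 counts on the 10 genes, so they carry little weight for these genes. Of 4 epithelial markers KRT8, KRT18 and CDH1 rose in A549/DDP (log2 fold changes 1.57, 1.18 and 2.26) and EPCAM did not pass the test (-0.07), and the part of these markers in the differences above was not tested. Of 4 lung and alveolar markers NKX2-1 and SFTPC had 0 to 1 counts in every library, SFTPB had 30 counts in A549/DDP replicate 1 and 0 in the others, and NAPSA did not pass the test. The defining markers of leukocytes and endothelium, PTPRC and PECAM1, had 0 to 5 counts. Of the fibroblast markers, COL1A1 had 234 and 430 counts in A549 and 526 and 275 in A549/DDP. DCN had 6 and 2 counts in A549 and 64 and 25 in A549/DDP. Of these 2 fibroblast markers 0 passed the test between the lines. CDKN2A, whose locus is deleted in A549, had 0 to 11 counts.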

How the data were processed

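Inputs and m6A-seq libraries of A549 and A549/DDP cells were used, 2 of each kind per line, and groups and replicate numbers were taken from the labels. For the A549 m6A-seq libraries these numbers are exchanged relative to the file names. The submitters' processing notes name STAR, RSEM, bedtools and hg38. The authors deposited expected counts (estimated, not normalized), TPM and FPKM (scaled for length and depth) and mean transcript lengths for each input, and for each m6A-seq library a list of peaks with a p-value, of which the lists do not say whether it was adjusted. The peak caller and its input are not given in the sources used here.

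In R 4.3.3, edgeR 4.0.16 was run on rounded expected counts with filterByExpr, TMM factors and the quasi-likelihood test without a block, and p-values were adjusted over 16406 genes by Benjamini-Hochberg. The SE is the size of the log2 fold change over the square root of F. A fit on simulated data with known changes was checked first. Depth was 29225501 to 35286514 counts per input, and the common biological coefficient of variation was 0.656. Peaks of a strand, whatever gene they were named for, were merged if their exon blocks had 1 base or more in common. Alternatives were DESeq2 1.42.0, upper-quartile scaling, other filters, limma 3.58.1 on log2 TPM or FPKM with pseudocounts of 1 or 0.1, the second pair of A549 inputs (labels that differ only by a full stop), both pairs, a replicate block and leaving out each replicate. Same-numbered inputs did not deviate together (correlation of deviations 0.021). The 10 genes, the pathway lists and the markers were chosen with earlier results of these data known. Named are the 10 genes, the pathway genes called, and SOD1, COX17, COMMD1, SLC22A2 and LRRC8B, LRRC8C and LRRC8E. 1 listed gene, SCO2, was not matched and is not analysed here.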

Additional observations from a re-analysis of the deposited data

How the results depend on the processing

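Of the 10 genes, 2 were called in the fit reported, beside 2437 of 16406 over all genes. DESeq2 called 5 (4329 of 22792 over all genes), at least 10 counts in every library 5 (3614 of 12840) and no filter beyond 1 count 6 (4010 of 22792). Upper-quartile scaling called 3 (2535 of 16406) and the second A549 pair 3 (3758 of 13815). Limma on log2(TPM + 1), log2(FPKM + 1) and log2(TPM + 0.1) called 0, 0 and 0, with 5, 6 and 5 at an unadjusted p under 0.05. Over all genes these limma fits called 1492 of 15398, 1632 of 14369 and 1177 of 15398. In edgeR with both A549 pairs 0 were called (677 of 16517), with 5 unadjusted. Leaving out each replicate gave 0 to 5, where edgeR took the lone library to vary like the other line; the 0, with 3 at an unadjusted p under 0.05, came without A549/DDP replicate 1. SLC31A1 kept its direction in 14 of 14 alternatives (log2 fold change 1.05 to 1.57, adjusted p 5.46e-05 to 0.106) and LRRC8D in 14 of 14 (-2.25 to -1.19, adjusted p 1.41e-10 to 0.124). Most of these fits reused the same libraries, in which neither gene overlapped between the lines, so a kept direction adds little. The 1.57 and the -1.19 came with the second A549 pair, which held 2 and 6 counts of SLC31A1 and 4 and 10 of LRRC8D. CCS and TMEM205 passed the threshold without A549 replicate 1 (log2 fold change 1.41 and 1.68) and not without A549 replicate 2 (1.00 and 0.77). LRRC8A and SLC47A1 passed it without A549 replicate 2 (0.75 and 1.57) and not without A549 replicate 1 (0.67 and 0.55). On leaving out a replicate, SLC31A2 ranged from -0.43 to 0.84 (negative without A549 replicate 1 and, at -0.07, without A549/DDP replicate 1), ATOX1 from -0.20 to 0.59 (negative without A549/DDP replicate 1) and ATP7A from -0.10 to 0.29 (negative without A549 replicate 2). The cause was not tested.

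Over all genes 2437 were called, against 4329 with DESeq2, 4010 with no filter beyond 1 count, 3758 with the second A549 pair, 1492 and 1177 with limma on log2(TPM + 1) and log2(TPM + 0.1), 677 with both pairs and 2052 to 3809 on leaving out a replicate. The share higher among calls was 46.1%, and 63.1% with the second pair, where the median log2 fold change of all genes was 0.80. That median was -0.20 and -0.11 without A549/DDP replicates 1 and 2. Of the pathway genes 8 were called, against 13 with DESeq2, 5 and 4 with limma on those TPM scales, 2 with both pairs and 7 to 12 on leaving out a replicate. LOXL2 turned to 0.27 with the second pair (adjusted p = 0.487), whose libraries held 15 and 20 counts of it. With the replicate block edgeR called 6 of the 10 genes, 11 pathway genes and 3536 genes in all. Over all genes the deviations of same-numbered inputs had a correlation of 0.021, which does not settle pairing for single genes. The labels do not say what a replicate number shares.

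With peaks at p at or below 1e-05, A549 replicates 1 and 2 and A549/DDP replicates 1 and 2 had a peak in 2, 0, 1 and 3 of the 10 genes, and with lists of equal length (10661 peaks) in 1, 1, 0 and 4. Regions called in both A549/DDP libraries only went from 1 to 0 in either case, and those in both A549 libraries only were 0. Leaving out a replicate gave 0 to 4 A549 regions and 1 to 6 A549/DDP regions, since 1 list then stands for a line. Peak lists without depth and 2 libraries per line limit what can be read from any single gene.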
